A study of Arabidopsis thaliana with 9 samples.

Results

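The deposited transcript tables of this Arabidopsis thaliana RNA sequencing series list 68898 transcripts, of which 21725 carry no gene identifier, no symbol and no position. The 19412 of these (89.4%) whose estimated counts summed to at least 90 over the 9 libraries are described here, and the other 2313 fell under that minimum. They are named as in the files, MERGE, then a number for the assembled locus, then a number for the transcript within it. Transcripts that overlap AT1G07350 (SR45a) or AT1G16610 (SR45) were to be left out by position. With no positions this could not be done, so transcripts of those genes may be among the 19412. The tables hold no sequence for them either, and none is shown. At the edge of the minimum, MERGE.3367.3 and MERGE.4713.2 had a summed estimate of 89 and were left out, while MERGE.1056.1 and MERGE.15307.2 had 90 and were kept. MERGE.4713.2 had its whole estimate in SR45a-1a-OE replicate 3, and MERGE.1056.1 had between 2 and 30 in every library.

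Transcript assembly joins sequencing reads into transcript models without relying only on known genes. Models that an annotation does not name can be unlisted isoforms of known genes, antisense RNAs, RNAs from between genes, or pieces and joins made by the assembly. SR45a belongs to the serine/arginine-rich proteins, which bind pre-mRNA and act in the choice of splice sites, and heat is known to change splicing in plants widely. Which of these kinds each of the 19412 transcripts belongs to cannot be read from the tables.

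All 9 libraries came from whole seedlings 2 weeks old that were held at 45 °C for 3 h, and no unheated library was included. The 3 genotypes were wild type (WT), a line overexpressing SR45a-1a (the overexpressor, SR45a-1a-OE) and the mutant sr45a, with 3 libraries each. The promoter of the overexpressor, the allele of the mutant and what separates the replicates are not given in the labels, so the p-values rest on the spread among these libraries, part of which may be technical. The comparisons ask which transcripts differ between these genotypes in heated seedlings. The level of SR45a cannot be told apart from any other difference between the lines.

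Levels are given as FPKM, a fragment level adjusted for transcript length and sequencing depth. Transcript estimates summed to 69441431 to 84634157 per library and gene counts to 18036195 to 21864604. An estimate stood at 3.88 times the gene count in single-transcript genes, so an estimate is not a number of reads. The SR45a gene followed the labels, at 204 to 226 FPKM in WT, 503 to 555 in the overexpressor and 0.955 to 3.68 in sr45a. Of the genes that mark organs, 4 leaf markers summed to 18121 to 23301 FPKM in every library. The 6 root markers summed to 58.6 to 109.5 and the 5 flower markers to 2.81 to 7.37. The 4 seed markers (storage proteins and an oleosin) summed to 0.295 to 0.45 in WT, 0.521 to 3.47 in the overexpressor and 11.7 to 20.4 in sr45a. The part of this seed signal in the differences of sr45a reported below was not tested. In a principal component analysis of the transcripts without an identifier, sr45a replicate 3 stood apart from its group. It had −65.32 on the first component, beside −70.38 to −121.32 for SR45a-1a-OE and 120.32 and 152.39 for its partners. SR45a-1a-OE replicate 3 (−70.38) was nearer to WT replicate 1 (−7.05) than its partners were. This component held 14.9% of the variance. On the second, with 13.5%, sr45a replicate 2 stood apart, at 196.17 beside −89.1 and 46.85 for its partners.

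The transcripts without an identifier were long and moderately to weakly expressed. Their spliced length, recovered from the ratio of estimate to FPKM, had a median of 2055 nt (quartiles 1454 and 3018), against 1706 nt (1222 and 2313) for the 36210 transcripts that have a gene identifier and pass the same minimum. The recovered length was within 1 nt of the RefSeq exon length in 99.5% of the 35849 annotated transcripts that could be checked. Transcripts of 5000 nt or more made up 5.55% (1077) of those without an identifier and 1.54% of those with one. The shortest was 204 nt and the longest 33099 nt. They fell into 8579 loci, of which 4524 held a single such transcript, 1811 held 2 and 2244 held 3 or more. Locus MERGE.12819 held 51, the most of any locus. Among the 9344 loci found when transcripts under the minimum are counted too, 3153 listed every transcript number up to the highest. These held 4211 of the 19412. The other 15201 lay in loci whose run of numbers has gaps. They were longer at the median, 2138 against 1765 nt, with nearly the same median level, 1.44 against 1.45 FPKM.

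**Figure D1:**
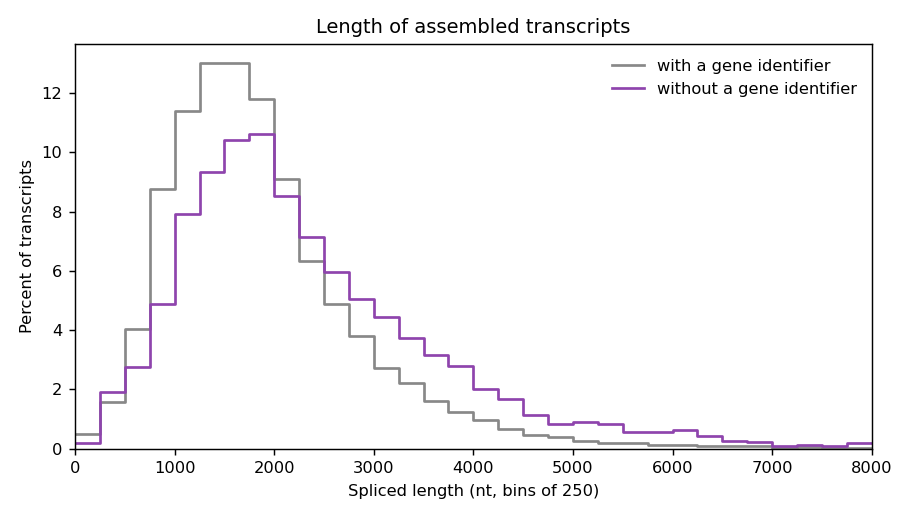
Spliced length in nt (x axis, bins of 250, drawn up to 8000 nt) against the percent of transcripts in each bin, for transcripts without (purple) and with (grey) a gene identifier. The purple line has its median at 2055 nt against 1706 nt and stays above the grey line among long transcripts.

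The median transcript without an identifier had a mean of 1.44 FPKM over the 9 libraries (quartiles 0.631 and 3.35), against 1.75 (0.48 and 7.35) for transcripts with one. The gap was widest at the top, since 1354 (6.98%) reached 10 FPKM against 20.3% of those with an identifier. A mean of 100 FPKM was reached by 47 of them, and 7468 were under 1 FPKM. The median was 1.64 FPKM under 1000 nt and 1.68 from 1000 to under 2000 nt, and lower in each longer class down to 0.937 at 5000 nt and over. In transcripts with an identifier it went from 2.33 in the shortest class to 0.689 in the longest. Among those of 3000 to under 5000 nt, transcripts without an identifier had the higher median, 1.16 against 0.87 FPKM. Estimates were concentrated: the 10 transcripts with the highest estimates held 7.06% of the sum over all 19412, and the top 100 held 18.9%.

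The most abundant were steady in some cases and swung between replicates in others. MERGE.4240.3 (1209 nt) was among the steadier, at 645, 727 and 711 FPKM in WT, 663, 464 and 856 in the overexpressor and 408, 449 and 397 in sr45a. All sr45a values lay below those of the other 6 libraries, and it was called in no comparison. MERGE.23499.5 (3069 nt) stood at 336, 458 and 561 in WT, 1513, 2352 and 915 in the overexpressor and 725, 476 and 1425 in sr45a. Its SR45a-1a-OE values lay above those of WT without overlap, and sr45a overlapped both. MERGE.10452.9 (1690 nt) was likewise higher in the overexpressor than in WT in every library, though not called, with 304, 325 and 268 in WT and 549.8, 419 and 475 in the overexpressor, while its sr45a values of 211, 229 and 461 spanned those of WT.

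The most abundant of all, MERGE.2808.6 (1412 nt), ranged from 0 to 2819 FPKM. Its values were 1166, 1976 and 2738 in WT, 24.6, 1100.5 and 2819 in the overexpressor and 0, 875 and 17.6 in sr45a. Its locus mate MERGE.2808.15 (1220 nt) was at 559 to 1008 in the first 8 libraries and at 27.3 in sr45a replicate 3. Over all 14 such transcripts of this locus the summed estimate was 237108, 350690 and 409139 in WT, 87165, 226596 and 406603 in the overexpressor and 105136, 266282 and 17131 in sr45a, so the swing was present in the locus sum too. MERGE.2035.1 (770 nt) was listed at 3056 FPKM in WT replicate 2 and 3119.6 in sr45a replicate 1, and at 0 in the other 7 libraries. MERGE.9586.4 (1620 nt) was at 78.8, 0 and 882 in WT, 1409.9, 1027 and 0 in the overexpressor and 1308, 926 and 1038 in sr45a. The remaining 3 of the top 10 were MERGE.13553.2 (226 to 1302 FPKM), MERGE.15797.2 (128 to 1333) and MERGE.21553.8 (29.1 to 754), and none of the 10 was called in any comparison.

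**Figure D2:**
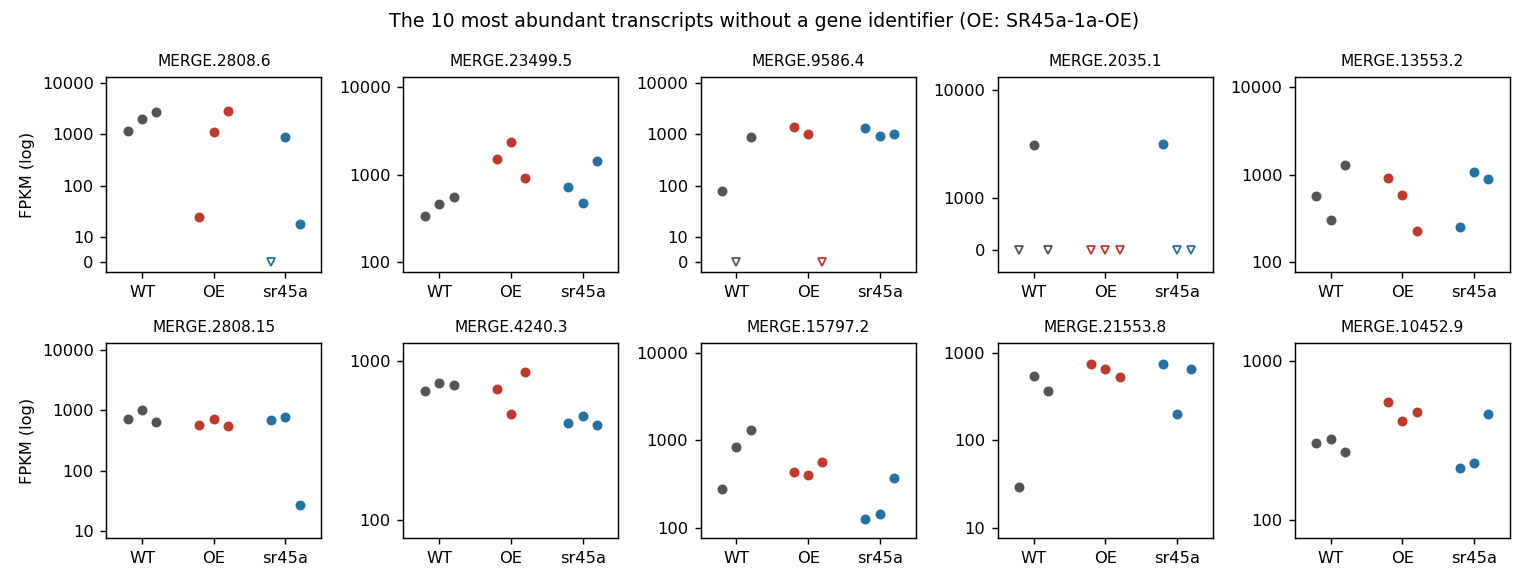
FPKM on a log axis for the 10 transcripts without an identifier that have the highest mean, with 1 point per library, grouped by genotype. Open triangles on the line labelled 0 are libraries listed at 0. MERGE.4240.3 keeps within 397 to 856 FPKM, while MERGE.2035.1 is listed above 0 in 2 of 9 libraries.

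Such swings were frequent. Within WT, 9137 transcripts without an identifier reached an estimate of 400 in at least 1 library, and 1325 of them (14.5%) were listed at 0 in another library of the same genotype. The share was 15.2% in the overexpressor and 17.3% in sr45a. Transcripts with an identifier showed it in 2.6%, 2.93% and 2.95%. A spread of 10-fold or more between replicates was found in 24.3%, 25.8% and 27.8% of those without an identifier and in 10.3%, 10.9% and 11.1% of those with one. The median ratio of the highest to the lowest replicate could be taken only where no replicate was at 0, which leaves out the widest spreads. Among these transcripts it was 1.97 in WT, 2.13 in the overexpressor and 2.17 in sr45a, against 1.38, 1.51 and 1.44. The difference was present among abundant transcripts too: at 30 FPKM and over, 58 of 305 (19.0%) had a 0 beside an estimate of 400 in some genotype, against 0.816% of the 3063 with an identifier. Between 10 and 30 FPKM it was 13.1% against 1.59%.

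The share was higher in loci with more such transcripts, from 17.8% where a locus held 1 to 24.4% with 2, 28.0% with 3 to 5, 29.6% with 6 to 10 and 30.6% with 11 or more. A spread of 10-fold or more in some genotype was found in 27.8% where a locus held 1 such transcript. In the larger classes it was found in 39.1%, 45.2%, 50.5% and 49.7%. With the estimates of a locus summed the order turned round, at 27.8%, 19.5%, 9.76%, 3.89% and 1.75% of loci. A sum averages over its transcripts, so part of this follows from the summing itself. Where a locus held 1 such transcript, the sum is nearly that transcript. Transcript numbers missing from a locus enter neither the classes nor the sums, so these can describe parts of loci. The medians of length and level also moved with the number of such transcripts. They went from 1714 nt and 2.01 FPKM where a locus held 1 to 2891 nt and 0.657 FPKM in the largest class. An estimate above 0 in all 9 libraries was found for 12859 (66.2%), against 82.8% with an identifier. In 770 cases the estimate came from 1 library alone, against 238.

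**Figure D3:**
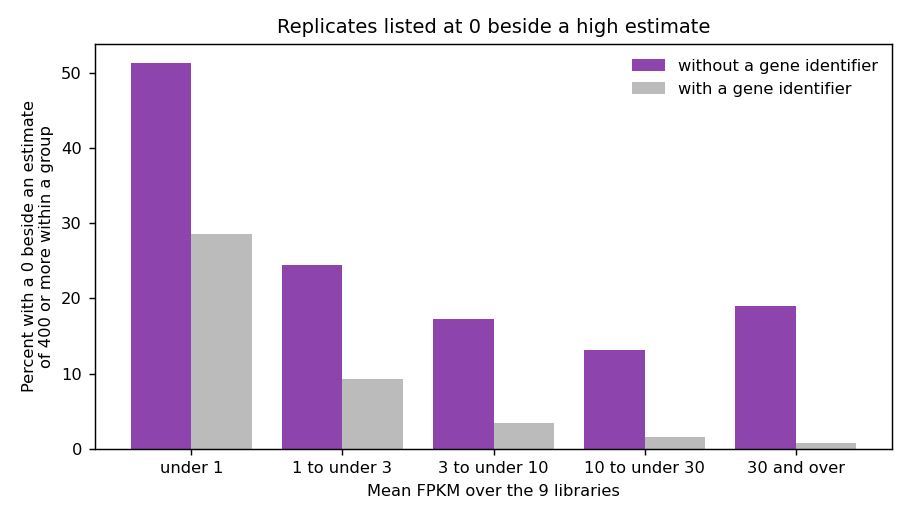
Bars give the percent of transcripts listed at 0 in 1 library although another library of the same genotype reached an estimate of 400, by mean FPKM over the 9 libraries, without (purple) and with (grey) a gene identifier. In the highest class the bars stand at 19.0% and 0.816%.

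Together the transcripts without an identifier held 15.29% to 17.86% of the summed estimate of a library. Their share was 17.86%, 16.05% and 15.91% in WT, 17.21%, 17.62% and 16.27% in the overexpressor and 15.29%, 15.42% and 16.27% in sr45a. The genotype means were 16.61 ± 1.09%, 17.03 ± 0.693% and 15.66 ± 0.532% (SD, n = 3), and the groups overlapped or touched. By two-sided exact permutation tests the difference was 0.425 percentage points for SR45a-1a-OE minus WT (p = 0.7), −0.945 for sr45a minus WT (p = 0.3) and 1.37 for SR45a-1a-OE minus sr45a (p = 0.2). With 3 against 3 libraries this test cannot go below 0.1. On summed FPKM the shares were lower, at 12.23 ± 0.585%, 12.39 ± 0.447% and 11.42 ± 0.109%. The sr45a shares of 11.41%, 11.32% and 11.54% then lay below all those of WT (lowest 11.77%) and SR45a-1a-OE (lowest 11.9%). The 2 differences that involve sr45a both had p = 0.1 by the exact permutation test, its lowest possible value.

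Few single transcripts passed the test. In these bulk samples fewer cells of a type and less RNA per cell cannot be told apart. edgeR's quasi-likelihood test was run on all 53837 transcripts that passed the low-count filter, 17734 of them without an identifier (91.4% of the 19412), with a Benjamini-Hochberg adjusted p under 0.05 as the threshold. Between SR45a-1a-OE and WT 10 were called, which is 0.0564% of those tested, while over all transcripts 0.039% were called. Of these, 6 were higher and 4 lower, with 0.0204% and 0.0186% over all transcripts. Between sr45a and WT 11 were called (0.062%, against 0.052% over all transcripts), 7 higher and 4 lower (0.0316% and 0.0204% over all). Between SR45a-1a-OE and sr45a 8 were called (0.0451%, against 0.0502%), 4 higher and 4 lower (0.0223% and 0.0279% over all). Calls among transcripts without an identifier were thus about as frequent as over the whole table. An unadjusted p under 0.05 was reached by 1423, 1189 and 1460 of them, which is 8.02%, 6.7% and 8.23%, against 9.96%, 6.66% and 9.0% of all transcripts tested. DESeq2 on the same estimates called 897, 677 and 859, which is 5.06%, 3.82% and 4.84%, against 5.7%, 3.25% and 4.77% over all transcripts. Single libraries decided these counts. For SR45a-1a-OE against WT the count was 18 without WT replicate 3. For sr45a against WT it was 0, 7 and 3 without SR45a-1a-OE replicates 1, 2 and 3, and 18 without sr45a replicate 1. The SR45a-1a-OE libraries take part in that comparison only through the filter, the scaling and the shared estimate of spread. For SR45a-1a-OE against sr45a the count was 1 and 4 without WT replicates 2 and 3. It was 5 and 13 without SR45a-1a-OE replicates 1 and 3, and 25 without sr45a replicate 3. Without both libraries numbered 3 of SR45a-1a-OE and sr45a the counts were 32, 6 and 34, of which 7, 0 and 3 were among the calls made with all libraries. With only the 6 libraries compared they were 7, 2 and 2, of which 2, 0 and 1 were among those calls. None of the 11 calls of sr45a against WT thus remained in either case. For SR45a-1a-OE against WT, the 2 that the edgeR fit of 6 libraries kept were MERGE.18185.16 (adjusted p = 0.0231) and MERGE.1078.2 (adjusted p = 0.0484).

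Counts of groups that do not overlap were uneven where sr45a was compared. All 3 sr45a values lay above all WT values in 829 transcripts without an identifier (4.67%) and below them in 1423 (8.02%). Over all transcripts these shares were 7.23% and 7.26%, and transcripts with an identifier leaned the other way, with 2985 higher and 2440 lower. Between SR45a-1a-OE and sr45a 1477 (8.33%) were higher in the overexpressor and 971 (5.48%) lower, against 7.55% and 7.73% over all transcripts. Between SR45a-1a-OE and WT the split was even, with 1365 higher and 1399 lower, against 9.42% and 9.43% over all transcripts. These counts use TMM scaling. Scaled by library total, the split was 1244 higher and 1524 lower for SR45a-1a-OE against WT, 861 and 1346 for sr45a against WT, and 1303 and 1084 for SR45a-1a-OE against sr45a. In transcripts with an identifier it was 3295 and 3927, 3207 and 2327, and 2139 and 3593 in that order. The higher part was thus 44.9%, 39.0% and 54.6% without an identifier, against 45.6%, 58.0% and 37.3% with one. The comparisons share libraries and are not independent of each other. The median log2 fold change of sr45a against WT was −0.10 without an identifier, 0.04 with one and 0.00 over all transcripts tested, and it was −0.03 without WT replicate 1. For SR45a-1a-OE against sr45a the 3 medians were 0.08, −0.01 and 0.01. Length moved with this value. Without an identifier the median for sr45a against WT went from 0.02 under 1000 nt to −0.18 at 5000 nt and over, and with an identifier from 0.13 to −0.18. Between 1000 and 2000 nt it was −0.06 against 0.05.

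**Figure D4:**
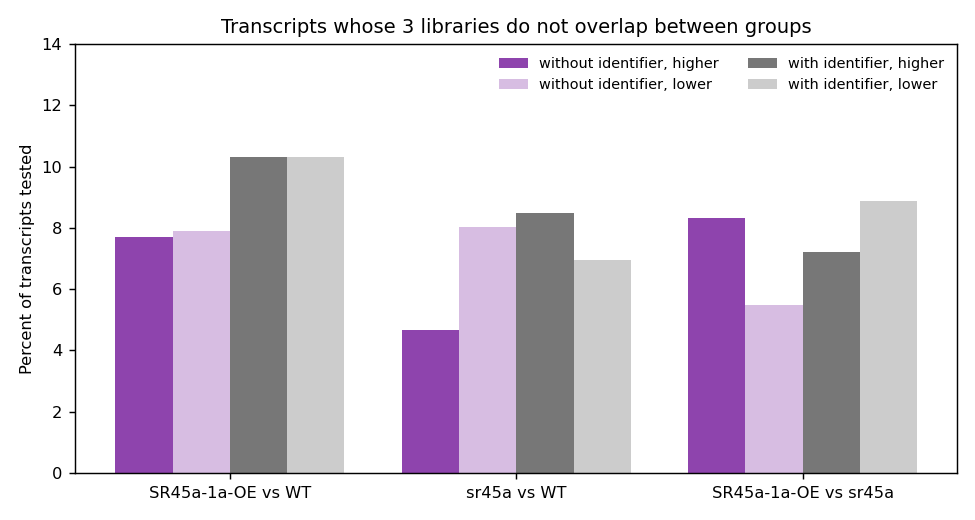
Percent of tested transcripts (y axis) in which all 3 libraries of the first genotype lay above or below all 3 of the second, for the 3 comparisons, without (purple shades) and with (grey shades) a gene identifier. For sr45a vs WT the purple bars stand at 4.67% higher and 8.02% lower.

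Some called transcripts were near or at 0 in WT and present in both altered lines, which are compared with the same WT libraries. MERGE.21404.1 (2064 nt) had 0.615, 0.929 and 1.01 FPKM in WT, 8.86, 11.1 and 9.57 in the overexpressor and 12.7, 9.90 and 10.1 in sr45a. Both lines lay above WT without overlap; the log2 fold change was 3.56 for the overexpressor (SE 0.26, adjusted p = 0.0119) and 3.66 for sr45a (SE 0.27, adjusted p = 0.0125). The first call held in 9 of 9 fits that each left out 1 library. Of these fits, the second was lost only without SR45a-1a-OE replicate 1, at an adjusted p of 0.0571. With only the 6 libraries compared both calls were lost, the first at an adjusted p of 0.0588. Its locus mates went the same way: MERGE.21404.2 was at 0 to 0.269 in WT and 1.25 to 4.46 in the other 6 libraries, and MERGE.21404.3 at 0 in WT and 0.389 to 1.46 in the other 6.

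MERGE.3185.4 (1957 nt) was listed at 0 in WT, with 7.84, 10.1 and 11.3 FPKM in the overexpressor and 7.37, 12.4 and 17.6 in sr45a (adjusted p = 0.0119 and 0.0125). Its locus mate MERGE.3185.3 was listed above 0 in the overexpressor alone, at 5.33, 7.43 and 3.61. MERGE.3185.2 was so only in SR45a-1a-OE replicate 3 and sr45a replicate 2, at 4.98 and 6.25. No transcript of this locus without an identifier was listed above 0 in WT, and any with one could not be seen. MERGE.1078.2 (4008 nt) had 0.00296, 0.00903 and 0.00295 in WT, 3.22, 2.08 and 2.92 in the overexpressor and 1.20, 3.85 and 2.75 in sr45a, a log2 fold change of 9.05 (adjusted p = 0.0124) and 8.90 (adjusted p = 0.0162). MERGE.22149.2 (7789 nt) was listed at 0 in WT, with 0.707, 0.571 and 0.537 in the overexpressor and 0.812, 0.873 and 1.93 in sr45a (adjusted p = 0.0349 and 0.0267). The calls of MERGE.3185.4 held in 8 and 7 of the 9 fits without 1 library, those of MERGE.1078.2 in 7 and 5, and those of MERGE.22149.2 in 2 and 4. Their highest adjusted p-values were 0.0624 and 0.0592 (without sr45a replicate 2 and SR45a-1a-OE replicate 1), 0.0667 and 0.0718 (both without WT replicate 1), and 0.097 and 0.0943 (without SR45a-1a-OE replicates 2 and 1).

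In locus MERGE.18185, which held 9 transcripts without an identifier, 2 changed in opposite directions. The usage test described below called MERGE.18185.16 in neither line against WT and MERGE.18185.17 in both. That test also called MERGE.18185.1 lower in sr45a than in WT (adjusted p = 0.0411). MERGE.18185.16 (2075 nt) stood at 9.28, 9.12 and 8.06 FPKM in WT, 0.700, 0.757 and 0.726 in the overexpressor and 1.01, 1.72 and 0.899 in sr45a. It fell in both lines, with log2 fold changes of −3.56 (SE 0.28, adjusted p = 0.0124) and −2.89 (SE 0.27, adjusted p = 0.0288). MERGE.18185.17 (1955 nt) was listed at 0 in WT, with 2.77, 6.19 and 4.02 in the overexpressor and 4.54, 6.0 and 5.67 in sr45a (adjusted p = 0.0119 and 0.0125). WT thus held the first and neither line held it at more than 1.72, while both lines held the second. The calls of MERGE.18185.16 held in 5 and 1 of the 9 fits without 1 library (highest adjusted p 0.0616 and 0.0924, without SR45a-1a-OE replicate 1 and WT replicate 2), and those of MERGE.18185.17 in 8 and 7 (0.0624 without sr45a replicate 2 and 0.0571 without SR45a-1a-OE replicate 1).

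Other transcripts differed in the overexpressor. MERGE.15716.1 (1122 nt), the sole such transcript of its locus, was at 3.85, 3.97 and 3.72 FPKM in WT and 4.63, 5.03 and 4.37 in sr45a, and listed at 0 in all 3 SR45a-1a-OE libraries (adjusted p = 0.0089 against WT and 0.00719 against sr45a). The call against WT held in 9 of 9 fits without 1 library, and that against sr45a in 8 of 9 (adjusted p = 0.0559 without WT replicate 2). With only the 6 libraries compared the call against WT was lost (adjusted p = 0.0949). MERGE.18393.3 (1894 nt) was the most abundant of the transcripts that fell, at 63.7, 63.5 and 73.5 in WT, 11.5, 14 and 9.20 in the overexpressor and 30.9, 34.3 and 24.7 in sr45a. In log2 terms it changed by −2.49 in the overexpressor (SE 0.19, adjusted p = 0.0119), while the −1.18 of sr45a was not called (adjusted p = 0.155). All 3 genotypes were apart without overlap. The call was lost without SR45a-1a-OE replicate 1, at an adjusted p of 0.0609.

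MERGE.594.3 (3838 nt) was at 0.266, 0.226 and 0.262 FPKM in WT, 2.30, 2.30 and 2.08 in the overexpressor and 0.378, 0.754 and 0.520 in sr45a, a log2 fold change of 3.19 over WT (SE 0.31, adjusted p = 0.0349). MERGE.18434.1 (1580 nt) stood at 6.81, 5.41 and 6.57 in WT, 19.2, 18.4 and 21.5 in the overexpressor and 3.44, 3.65 and 4.70 in sr45a. The log2 fold change of the overexpressor over sr45a was 2.38 (SE 0.20, adjusted p = 0.0235), and its 1.70 over WT was not called (adjusted p = 0.0703). MERGE.8563.2 (2666 nt) was listed at 0 in the overexpressor, with 0.819, 1.5 and 1.14 in WT and 0.696, 1.66 and 1.02 in sr45a (adjusted p = 0.0422 and 0.0411). Of the 9 fits without 1 library the call held in 2 for MERGE.594.3 (highest adjusted p 0.13, without WT replicate 2), in 3 for MERGE.18434.1 (0.064, without sr45a replicate 1), and in 0 for both calls of MERGE.8563.2 (0.108 and 0.124, without WT replicates 2 and 3).

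A further set differed in sr45a, the genotype with the highest seed marker sum. MERGE.3693.2 (666 nt) had 5.79, 5.90 and 6.25 FPKM in sr45a, against 0.0178, 0.0724 and 0.0177 in WT and 0.018 to 0.0183 in the overexpressor. Its log2 fold change over WT was 7.28 (SE 0.68, adjusted p = 0.0267), and SR45a-1a-OE minus sr45a was −8.14 (SE 0.71, adjusted p = 0.0259). MERGE.6077.1 (1569 nt) was the most abundant called transcript, at 203, 193 and 194 in WT, 168, 214 and 176 in the overexpressor and 385, 369 and 348 in sr45a. It rose in sr45a by 0.89 (SE 0.09, adjusted p = 0.0389), and SR45a-1a-OE minus sr45a was −0.93 (SE 0.09, adjusted p = 0.0406). WT and SR45a-1a-OE overlapped in it, and every sr45a value lay above both.

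Transcripts listed at 0 in all 3 sr45a libraries and called were MERGE.20513.9, MERGE.15449.18 and MERGE.9838.2. MERGE.20513.9 (2950 nt) was at 1.71, 2.86 and 1.91 FPKM in WT and 1.65, 4.85 and 2.40 in the overexpressor (adjusted p = 0.0372 and 0.0406). MERGE.15449.18 (4004 nt) was at 0.584, 0.446 and 0.567 in WT and 0.732, 0.824 and 0.591 in the overexpressor (adjusted p = 0.0173 and 0.0218). MERGE.9838.2 (2538 nt) was at 0.440, 0.908 and 0.582 in WT and 0.987, 0.816 and 0.697 in the overexpressor (adjusted p = 0.0389 and 0.0411). Of the 10 calls of these 5 transcripts, those of MERGE.3693.2 held in 1 and 4 of the 9 fits without 1 library against WT and against SR45a-1a-OE, those of MERGE.6077.1 in 1 and 1, MERGE.20513.9 in 1 and 2, MERGE.15449.18 in 3 and 4 and MERGE.9838.2 in 0 and 1. The highest adjusted p among these fits was 0.145, for MERGE.6077.1 against WT without WT replicate 2. In all, 16 transcripts were called in at least 1 comparison, and 8 of them were listed at 0 in all 3 libraries of a genotype.

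**Figure D5:**
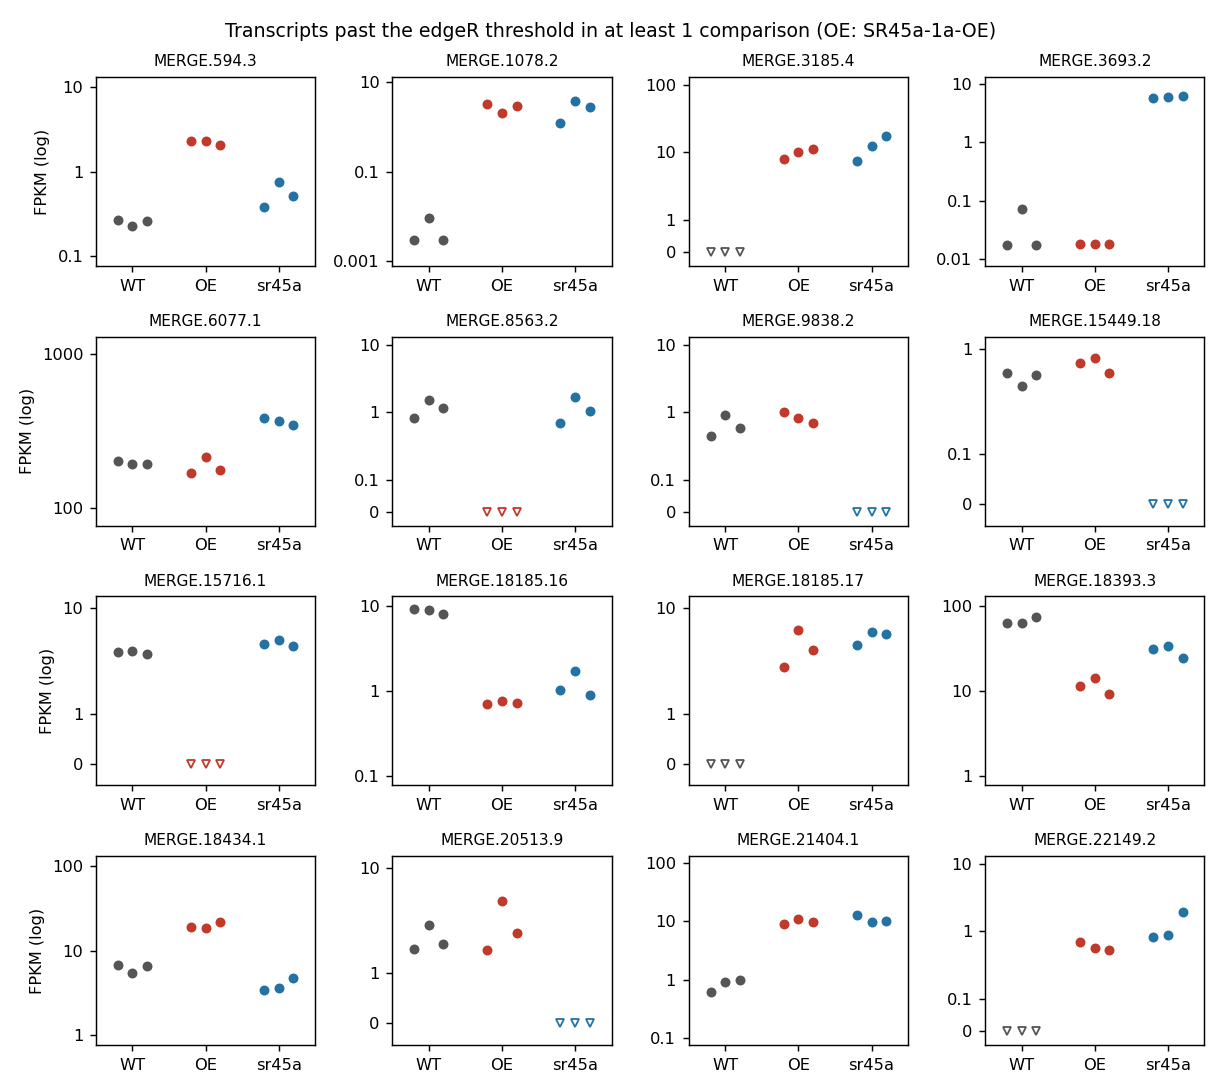
FPKM on a log axis of each panel for the 16 transcripts without an identifier that passed the edgeR threshold in at least 1 comparison, with 1 point per library, grouped by genotype. Open triangles on the line labelled 0 are libraries listed at 0; MERGE.21404.1, for example, lies at 0.615 to 1.01 in WT and at 8.86 or more in the other 6 libraries.

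A stricter description asks for 0 in all 3 libraries of a genotype and an estimate of at least 40 in each of the other 6. With WT at 0 there were 5 transcripts without an identifier and 5 with one (0.018% of all 55622 transcripts over the minimum). With SR45a-1a-OE at 0 there were 5 and 1 (0.0108%), and with sr45a at 0 there were 8 and 6 (0.0252%). The reverse is at least 40 in each library of 1 genotype with 0 in the other 6. It was found for 2 and 8 in WT (0.018%), 6 and 4 in the overexpressor (0.018%) and 4 and 4 in sr45a (0.0144%). The highest level among them was that of MERGE.17978.2 (834 nt), listed at 0 in WT, at 22.3, 28.9 and 107 FPKM in the overexpressor and at 51.4, 56.4 and 36.2 in sr45a. It was not called at the transcript level. Its locus sum, described below, held the same FPKM values and was called by edgeR against WT. The adjusted p was 0.0393 for SR45a-1a-OE and 0.0409 for sr45a. MERGE.19083.3 (3879 nt) was listed above 0 in the overexpressor alone, at 8.0, 5.29 and 6.08, as was MERGE.6471.6, at 7.63, 1.53 and 2.85. MERGE.7714.8 (8.51, 7.81 and 1.71) and MERGE.16441.5 (2.34, 8.92 and 6.05) were listed above 0 in WT alone. MERGE.23868.3 (4.92, 7.02 and 1.93) and MERGE.16328.19 (2.57, 4.99 and 1.45) were so in sr45a alone. None of the transcripts named in this paragraph was called at the transcript level. Except for MERGE.19083.3, which the usage test below also names, they were chosen after their values were seen.

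Usage, the share a transcript takes of the summed estimate of its locus, could be tested for 13288 transcripts without an identifier that share a locus with another. These shares count only transcripts without an identifier, because the tables do not link the loci to annotated genes. With edgeR's diffSpliceDGE 22 of the 13288 were called between SR45a-1a-OE and WT, 10 higher and 12 lower, in 21 loci. Over all 35156 transcripts tested 40 were called (0.114%). There were 26 calls between sr45a and WT, 11 higher and 15 lower, with 43 (0.122%) over all. Between SR45a-1a-OE and sr45a there were 30, 16 higher and 14 lower, with 53 (0.151%) over all. A share moved by at least 10 percentage points in 19, 17 and 19 of the 22, 26 and 30. Leaving out 1 library moved the counts by over 1.5 times in 4 cases. They were 13 and 17 without WT replicate 2 for the first 2 comparisons, 17 without SR45a-1a-OE replicate 2 for sr45a against WT, and 19 without sr45a replicate 1 for SR45a-1a-OE against sr45a.

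MERGE.19083.3 took 22.1%, 15.4% and 18.9% of its locus in the overexpressor and 0 in the other 6 libraries (adjusted p = 5.15e-07 against WT and 7.1e-07 against sr45a). MERGE.18185.17 took 0 in WT, 35.5%, 51.8% and 39.0% in the overexpressor and 45.9%, 47.7% and 51.2% in sr45a (adjusted p = 9.77e-07 and 9.2e-07). Both had groups that do not overlap, and all 4 of their calls held in every fit without 1 library. With limma's diffSplice, run as an alternative, MERGE.19083.3 against sr45a missed the threshold (adjusted p = 0.052) and the other 3 calls held. MERGE.14297.2 took 8.73%, 57.2% and 30.5% in WT, 21.6%, 23.7% and 12.7% in the overexpressor and 0.0805%, 0.0944% and 0.103% in sr45a (adjusted p = 0.00227 against WT). MERGE.5501.4 went the other way, with 24.9%, 10.3% and 54.1% in sr45a, 0, 0 and 0.026% in WT and 0.285% to 0.984% in the overexpressor (adjusted p = 0.00101 against WT). These 2 calls held in all 9 such fits but were lost with limma's diffSplice (adjusted p = 0.286 and 0.211).

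The other named usage calls rested on less even replicates. MERGE.4943.18 took 35.3%, 24.9% and 0 in WT, 0 in the overexpressor and 60.5%, 43.0% and 0 in sr45a, so that 1 library of each other genotype overlapped with SR45a-1a-OE (adjusted p = 0.00716 against WT and 0.00251 against sr45a). MERGE.21481.17 took 0, 17.3% and 17.5% in WT and 0 in sr45a (adjusted p = 0.00238), with 0, 14% and 0 in the overexpressor. MERGE.4992.2 was at 7.86%, 30.7% and 0.585% in WT, 0 in the overexpressor and 25.1%, 36.0% and 15.2% in sr45a (adjusted p = 0.00688 and 0.00251). Its calls held in 3 and 4 of the 9 fits without 1 library, with a highest adjusted p of 0.22 without SR45a-1a-OE replicate 1. MERGE.3185.3, at a mean of 37.5% in the overexpressor and 0 in sr45a (adjusted p = 0.00251), was called in 2 of 9, up to 0.713 without sr45a replicate 1. For MERGE.4943.18 the call against WT held in 7 of 9 (0.0581 without SR45a-1a-OE replicate 2). With limma's diffSplice the calls of MERGE.4943.18 (adjusted p = 0.695 against WT and 0.587 against sr45a), MERGE.21481.17 (0.426) and MERGE.4992.2 against WT (0.23) were lost. Those of MERGE.4992.2 against sr45a (0.0296) and MERGE.3185.3 (0.0165) held.

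The estimates were also summed per locus, a choice made after the data were seen. The tests used these summed estimates, so their log2 fold changes and SEs can differ from what the summed FPKM below would give. Of 8210 such loci tested, 15 were called between SR45a-1a-OE and WT (11 higher, 4 lower), 10 between sr45a and WT (7 higher, 3 lower) and 14 between SR45a-1a-OE and sr45a (8 higher, 6 lower). Over all 30403 loci and genes of these fits 52, 29 and 45 were called (0.171%, 0.0954% and 0.148%). Summed FPKM of MERGE.13728 was 1.93, 1.34 and 1.87 in WT, 9.69, 10.1 and 10.2 in the overexpressor and 10.2, 14.1 and 12.0 in sr45a. The log2 fold changes were 2.57 (SE 0.18, adjusted p = 0.00386) and 2.79 (SE 0.18, adjusted p = 0.00234). No single transcript of it without an identifier was called. MERGE.11746 was at 181, 189 and 204 in WT, 0.672, 0.96 and 2.34 in the overexpressor and 63.3, 162 and 75.7 in sr45a, with the overexpressor at a log2 fold change of −7.02 against WT (SE 0.61, adjusted p = 0.0108) and −6.09 against sr45a (SE 0.59, adjusted p = 0.0175). All SR45a-1a-OE values lay far below the other 6. MERGE.10244 was present mainly in the overexpressor, at 2.5, 1.41 and 2.16, with at most 0.0132 elsewhere (adjusted p = 0.0106 and 0.0119). MERGE.14443 had its lowest values in sr45a, at 22.4, 23.0 and 23.6. It stood at 51.8, 46.2 and 35.4 in WT and at 46.9, 69.9 and 70.6 in the overexpressor, which overlapped. The overexpressor was called against sr45a (log2 fold change 1.08, SE 0.09, adjusted p = 0.0095). MERGE.3962 fell in sr45a, from 6.55, 3.52 and 6.04 in WT to 1.28, 1.05 and 1.20 (−2.21, SE 0.26, adjusted p = 0.041). Its values in the overexpressor, 1.42, 1.63 and 1.49, also lay below all of WT, without passing the test. These 5 loci were chosen after their values were seen.

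MERGE.712.7 (1968 nt), the sole such transcript of its locus, had levels in the order of the SR45a gene itself. It stood at 49.8, 43.8 and 61.7 FPKM in WT, 199, 205 and 182 in the overexpressor and 0.260, 0.959 and 2.34 in sr45a, beside 226, 204 and 208, 553, 555 and 503, and 0.955, 2.40 and 3.68 for the gene. It was not called as a transcript (adjusted p = 0.396 for SR45a-1a-OE against WT, 0.110 for sr45a against WT and 0.056 for SR45a-1a-OE against sr45a). On locus sums the last of these was called (log2 fold change 7.40, SE 0.82, adjusted p = 0.0276). MERGE.712.7 gave the sum the same FPKM values, so only the fit and the adjustment differed. Whether it overlaps SR45a could not be seen without positions, and it enters no count of single transcripts called, though its locus is 1 of the 14 above. An order of SR45a-1a-OE above WT above sr45a in every library was found for 38 of the 19412 (0.196%) and for 52 of the 36210 with an identifier (0.144%). With the sr45a mean under 5% of that of WT as well, 2 remained, MERGE.712.7 and MERGE.15449.18, and 3 with an identifier. MERGE.712.7 was chosen after its values were seen.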

How the data were processed

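RNA sequencing of 9 libraries was used. Per the labels' protocols, the authors filtered 150-bp paired reads with fastp (minimum length 36 bp). The assembler, aligner, quantifier and genome build are not given in the sources used here. The authors deposited an estimated count and an FPKM for each transcript, and a whole-number count and an FPKM for each gene; per the file headers, columns were matched to samples by genotype and number. The deposited estimates were already whole. Gene counts were used for depth and for the scale of the estimates.

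The main test was edgeR 4.0.16 (R 4.3.3) on the whole transcript table: TMM, filterByExpr with the genotypes as groups (count 10, total 15), 1 quasi-likelihood fit over the 9 libraries and Benjamini-Hochberg adjustment. SEs were derived from F statistics. No fold is given against a group listed at 0. Usage was tested with diffSpliceDGE within assembled loci. Scripts were tested on simulated data. DESeq2 1.42.0, limma 3.58.1, Python 3.11.15, pandas 2.3.3 and matplotlib 3.10.9 were also used. Lengths are from the ratio of estimate to FPKM, calibrated on RefSeq TAIR10.1 exon lengths.

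Named were the 6 largest rises and falls past the test against WT (4 and 4 between the lines) that did not overlap and reached 1 FPKM, the 10 most abundant, the 4 usage calls with the smallest p and a move of 10 percentage points, and the remaining called transcripts. The members, lists and rules were chosen with earlier results of these data known. The cut-offs of 40 and 400 and the order of SR45a were chosen after seeing the data. Classes by position and lists of neighbouring genes could not be applied, as the tables tie no such transcript to a gene.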

Additional observations from a re-analysis of the deposited data

How the results depend on the processing

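The number of called transcripts without an identifier was 10 for SR45a-1a-OE against WT, 11 for sr45a against WT and 8 for SR45a-1a-OE against sr45a. In that order it was 897, 677 and 859 with DESeq2, 19, 18 and 22 with limma on log2(FPKM + 1), 27, 28 and 33 with limma on log2(FPKM + 0.1), and 0, 0 and 0 with the replicate number as a block, where the usage calls, 22, 26 and 30 without it, numbered 10, 16 and 13, of which 8, 13 and 11 were shared. Same-numbered libraries did not deviate together over these transcripts (correlations from −0.0307 to 0.0271). With the wide replicate spread given above, this check cannot decide whether the numbers pair the samples. In fits of only the 6 libraries compared, both comparisons with sr45a gave 2, of which 0 and 1 were among the 11 and 8. limma's diffSplice made 17, 26 and 28 usage calls, of which 2, 3 and 3 were shared. Between SR45a-1a-OE and sr45a the count was 4 with no low-count filter, 4 with estimates divided by 3.88, and 14 of summed loci. Without both libraries numbered 3 of SR45a-1a-OE and sr45a, an alternative chosen after seeing the data, it was 32, 6 and 34. Leaving out each library in turn gave 8 to 18, 0 to 18 and 1 to 25 calls, and 13 to 27, 17 to 36 and 19 to 34 usage calls. The cause of these moves was not tested. The counts stayed within 1.5 times under DESeq2 size factors, a filter of 1 CPM, an added log2 fold change of 1 and member minimums of 900 or above 0. No transcript called for level or named for usage changed direction under its alternatives; the other named transcripts were not followed through them. The difference in library share kept its direction throughout, with leave-one-out ranges of 0.0762 to 1.05, −1.29 to −0.318 and 1.08 to 1.75 percentage points; by the exact test with the replicate block p was 0.75, 0.5 and 0.5, where 3 pairs allow no less than 0.25. Depth limits low transcripts: 5347 of the 19412 had a summed estimate under 1000.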
